A study of Mus musculus with 13 samples.

Results

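The α2δ and β subunits of voltage-gated calcium channels, 8 genes in all, were read in full-thickness back skin of mice at P4. The members are *Cacna2d1*, *Cacna2d2*, *Cacna2d3* and *Cacna2d4*, which encode the α2δ proteins, and *Cacnb1*, *Cacnb2*, *Cacnb3* and *Cacnb4*, which encode the β proteins, out of 49315 genes in the count files. The family was chosen by a measured value, the WT against mutant difference of *Cacna2d2*, which headed a list of calcium ion transport genes, and its relatives were then taken whole by name. Differences between the genotypes are therefore given here as a description, and a threshold passed by a member is no independent evidence.

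Total RNA was sequenced from 3 WT mice and from 3 mice labelled K14KCTD1KCTD15DKO (DKO below), with 1 library per mouse. The DKO mice were K14Cre+Kctd1fl/flKctd15fl/fl, so that Cre under the keratin 14 promoter acts in keratinocytes of the epidermis and its appendages, while dermis, muscle, nerve and blood vessels in the same sample keep both genes. The WT mice were littermates of such mice, and the labels do not give their Cre or floxed alleles. The 7 epidermis libraries of the series, from mice aged 3 weeks, hold a count of 0 for every gene and give no value for the family.

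A high voltage-activated calcium channel is built around a pore-forming α1 subunit, and the α2δ and β subunits are its auxiliary parts. The α2δ proteins are heavily glycosylated, sit on the outer face of the membrane, and help to bring the channel to the cell surface. The β proteins lie in the cytoplasm, bind the linker between the first and second repeats of α1, and raise surface expression and shape gating. In skeletal muscle, the channel formed by *Cacna1s* with *Cacnb1*, *Cacna2d1* and *Cacng1* couples excitation to contraction, and full-thickness back skin of the mouse includes a muscle layer, the panniculus carnosus.

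The promoter of *Cacna2d2*, the member with the largest difference between the genotypes, is shown with the GC box letters GGGCGG in capitals. RefSeq promoter windows, from 250 bases before to 50 bases after a start, were found for 7 of the 8 members, with 12 windows in all, and *Cacna2d4* had none. The study concerns repressors of AP-2 transcription factors, so the windows were also searched for GCCNNNGGC, the palindromic AP-2 letters. These letters occur in 16.6% of all 32851 promoter windows and in 1 of the 12 windows of the family, which lies at the downstream start of *Cacnb1* and is shown with the match in capitals. GGGCGG on either strand occurs in 35.7% of all windows and in 8 of the 12. A match describes the letters only, and a window with no match says nothing of whether a factor binds.
Cacna2d2, chr9:107399630-107399929, GRCm38.p6, plus strand, GC box in capitals: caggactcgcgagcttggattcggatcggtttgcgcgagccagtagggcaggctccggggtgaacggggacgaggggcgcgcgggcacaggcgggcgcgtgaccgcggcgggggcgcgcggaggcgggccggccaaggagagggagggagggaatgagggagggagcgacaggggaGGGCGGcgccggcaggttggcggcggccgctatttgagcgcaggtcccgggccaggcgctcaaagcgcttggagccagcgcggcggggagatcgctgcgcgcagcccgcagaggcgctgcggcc
Cacnb1, chr11:98018323-98018622, GRCm38.p6, minus strand, AP-2 letters in capitals: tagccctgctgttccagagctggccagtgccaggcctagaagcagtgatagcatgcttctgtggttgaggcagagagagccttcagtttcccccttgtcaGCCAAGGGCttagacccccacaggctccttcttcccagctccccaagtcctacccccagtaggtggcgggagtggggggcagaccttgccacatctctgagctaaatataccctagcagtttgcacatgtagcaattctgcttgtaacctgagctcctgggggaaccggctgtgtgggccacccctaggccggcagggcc

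The 6 libraries held between 11263863 and 17643043 counts on genes, and a count of 3, taken as the smallest that can be told from 0, stood for 0.17 to 0.266 CPM (counts scaled to a common library total), which covers counting error only. All 8 members had enough counts for a test. The targeted gene *Kctd1* had normalized counts of 443, 410 and 442 in WT (values follow the replicate number throughout) and 506, 985 and 735 in DKO, and *Kctd15* had 736, 737 and 763 against 1130, 1509 and 1325, so counts over whole genes do not show the deletion and every direction rests on the labels. A normalized count is the count scaled to the mean effective library size. Among the 24 skeletal muscle markers, none at 0 in all libraries, the summed level was 6348 to 7245 CPM in WT and 22089, 9279 and 10368 CPM in DKO. DKO replicate 1 stood apart in this sum, of which *Ttn* alone made up 57.1% to 62.8%. The 14 keratinocyte markers summed to 12682 to 13029 CPM in WT and 14019 to 16456 CPM in DKO, and the labelled tissue thus held both epithelium and muscle.

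*Cacna2d2* was higher in every DKO library than in every WT library. This gene (ENSMUSG00000010066, GRCm38 chromosome 9, 107399612 to 107529343, plus strand) encodes α2δ-2, whose loss causes ataxia and epilepsy in the ducky mouse. WT skin had 151, 141 and 114 normalized counts, and DKO skin had 268, 449 and 346. The lowest DKO library thus lay well above the highest WT library, and DKO replicate 2 was the highest of all. The means were 135 ± 19.2 in WT and 354.5 ± 90.7 in DKO (SD, n = 3), a ratio of 2.62. On the log2 scale the difference was 1.39 ± 0.22 (SE, as for all log2 fold changes below), and its adjusted p-value of 0.0726 in edgeR missed the threshold of 0.05. DESeq2, the tool of the study, estimated 1.38 and called the gene, at an adjusted p-value of 1.27e-05.

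None of the 8 members passed the thresholds of the study (adjusted p under 0.05 and absolute log2 fold change over 1) in edgeR, where 0.0694% of the 20168 genes tested did (0.0397% higher and 0.0298% lower in DKO). With DESeq2, 1 member was called, against 0.783% of 19663 genes with an adjusted p-value. An unadjusted p-value under 0.05 in edgeR was found for 2 members, *Cacna2d2* and *Cacnb1*, both higher in DKO, against 7.5% of all genes tested (4.96% higher). In these 2 members every DKO library lay above every WT library, and no member showed the opposite, where groups did not overlap in 13.2% of all genes tested (7.24% with DKO above WT and 5.96% below). These shares are printed as background, since the same comparison led to the choice of the family. The median log2 fold change over the 8 members was 0.17, with 5 higher and 3 lower in DKO, beside a median of 0.02 and 52.9% higher over all genes tested. For the 7 members other than *Cacna2d2*, the adjusted p-values in edgeR ran from 0.398 to 0.994.

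**Figure D1:**
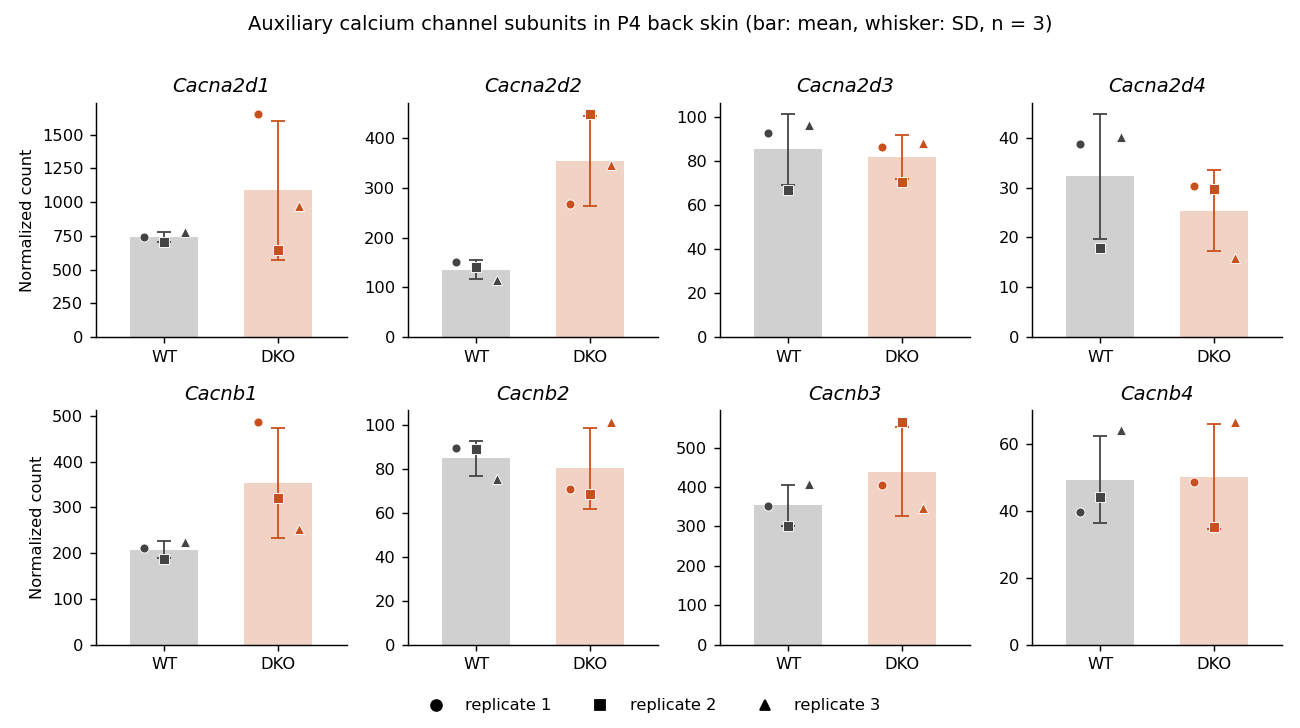
Normalized counts of the 8 auxiliary subunits in each P4 skin library (points, shaped by replicate), with the mean (bar) and SD (whisker) of 3 WT and 3 DKO mice. In *Cacna2d2* (268 to 449 against 114 to 151) and *Cacnb1* (254 to 488 against 187 to 225) the DKO points lie above all WT points, while the other 6 genes overlap between the genotypes.

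*Cacna2d1* (ENSMUSG00000040118, chromosome 5, 15934691 to 16374511, plus strand) encodes α2δ-1, the form found in skeletal muscle and in sensory neurons and, with α2δ-2, a target of gabapentin. Its normalized counts were 741, 703 and 778 in WT and 1654, 642 and 971 in DKO. DKO replicate 2 was the lowest of all 6 libraries and DKO replicate 1 the highest, so the groups overlapped. The log2 fold change was 0.55 ± 0.28, and 0.11 without DKO replicate 1. *Cacna2d3* (ENSMUSG00000021991, chromosome 14, 28904943 to 29721864, minus strand), a neuronal form, had 92.8, 67.1 and 96.7 normalized counts in WT and 86.8, 70.6 and 88.6 in DKO. Its groups covered nearly the same range, and the log2 fold change was -0.06 ± 0.23. *Cacna2d4* (ENSMUSG00000041460, chromosome 6, 119236526 to 119352407, plus strand), known from photoreceptors, was scarce, with 38.7, 17.8 and 40.2 in WT and 30.2, 29.8 and 15.9 in DKO. These values rest on 16 to 47 counts per library, and the log2 fold change was -0.36 ± 0.41.

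Among the β subunits, *Cacnb1* (ENSMUSG00000020882, chromosome 11, 98001508 to 98023034, minus strand), the β subunit of the skeletal muscle channel, had 211, 187 and 225 normalized counts in WT and 488, 320 and 254 in DKO. All DKO libraries lay above all WT libraries, with DKO replicate 3 close to the highest WT value. The means were 208 ± 19.4 and 354 ± 121 (SD, n = 3), and the log2 fold change was 0.77 ± 0.23, or 0.45 without DKO replicate 1. *Cacnb3* (ENSMUSG00000003352, chromosome 15, 98632220 to 98644530, plus strand), a widely expressed form, had 353, 300.5 and 406 in WT and 405, 566 and 346 in DKO. Only DKO replicate 2 lay outside the WT range, and the log2 fold change was 0.31 ± 0.20, or 0.09 without that library. *Cacnb2* (ENSMUSG00000057914, chromosome 2, 14603088 to 14987908, plus strand), the main β subunit of the heart, had 89.7, 89.1 and 75.3 against 71.0, 68.4 and 101.5. *Cacnb4* (ENSMUSG00000017412, chromosome 2, 52428320 to 52676831, minus strand), a brain form mutated in the lethargic mouse, had 39.8, 44.1 and 64.2 against 48.6, 35.3 and 66.7. Both overlapped between the genotypes, with log2 fold changes of -0.07 ± 0.24 and 0.03 ± 0.32. Genes on the opposite strand overlap 16.0% of the exonic bases of *Cacnb4*, 7.32% of *Cacnb2*, 1.77% of *Cacnb1* and 1.03% of *Cacna2d2*, and since the strand setting of the counting is not stated, reads from either strand cannot be told apart there.

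Levels of different genes were compared per length, as RPKM (CPM divided by the length of counted exon in kilobases). In WT skin the order was *Cacnb3* (7.54 ± 1.14), *Cacna2d1* (3.97 ± 0.207), *Cacnb1* (3.05 ± 0.286), *Cacna2d3* (1.54 ± 0.288), *Cacna2d2* (1.13 ± 0.155), *Cacnb2* (0.426 ± 0.0395), *Cacnb4* (0.367 ± 0.0986) and *Cacna2d4* (0.227 ± 0.0877 RPKM, SD, n = 3). In DKO skin the same 3 genes led with 9.06 ± 1.81, 5.78 ± 2.97 and 5.10 ± 1.90 RPKM, and *Cacna2d2* with 2.87 ± 0.574 RPKM stood above *Cacna2d3* with 1.45 ± 0.251 RPKM. The family thus spanned the range from 0.112 to 11.0 RPKM over genes and libraries. *Cacna2d3* was counted over 3695 bases and *Cacnb3* over 3120, where the GENCODE M21 annotation holds 8720 and 4010 exonic bases, so that their RPKM rests on part of the annotated gene.

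The order was set by the WT means, so the 3 DKO libraries, which did not set it, are the ones that bear on it. For pairs with *Cacna2d2* they are not independent either, since its WT against DKO difference led to the choice of the family. With 3 libraries, a two-sided exact sign-flip permutation test on log2(RPKM + 0.01) cannot go below p = 0.25. Among the α2δ genes, *Cacna2d1* was above *Cacna2d3* in 3 of 3 DKO libraries, by 1.88 ± 0.555 on the log2 scale (SD), and *Cacna2d2* was above *Cacna2d4* in 3 of 3, by 4.01 ± 0.623. *Cacna2d3* was above *Cacna2d2* in all WT libraries and in 0 of 3 DKO libraries. Among the β genes, *Cacnb3* was above *Cacnb1* by 0.87 ± 0.554 and *Cacnb1* above *Cacnb2* by 3.62 ± 0.729, each in 3 of 3 DKO libraries. *Cacnb2* and *Cacnb4* differed by 0.14 ± 0.213, within the spread between libraries, with *Cacnb2* above in 2 of 3. At the top of the order, *Cacnb3* was above *Cacna2d1* in 2 of 3 DKO libraries and 5 of 6 in all, and in DKO replicate 1 *Cacna2d1* was higher, at 8.995 against 8.764 RPKM. *Cacna2d1* and *Cacnb1* were likewise not separated, with *Cacna2d1* above in 2 of 3 DKO libraries.

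**Figure D2:**
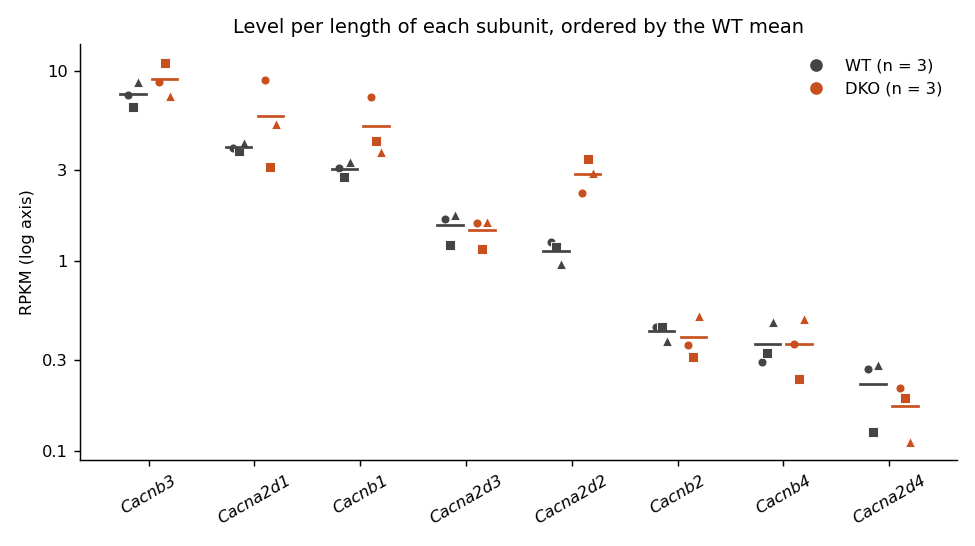
RPKM (log axis) of each subunit in 3 WT and 3 DKO libraries, ordered by the WT mean, where points are libraries shaped by replicate and lines are group means. *Cacnb3* has the highest mean in both genotypes, with libraries at 6.43 to 11.0 RPKM, and by their means *Cacna2d2* and *Cacna2d3* exchange the fourth and the fifth place between WT and DKO.

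The summed RPKM of the α2δ genes was 7.13, 6.30 and 7.18 in WT and 13.1, 7.91 and 9.84 in DKO. All DKO sums lay above all WT sums, as did the DKO values of 7.24% of single genes tested. The sum includes *Cacna2d2*, whose difference led to the choice of the family, so this is a description only. *Cacna2d1*, the largest part of the sum in WT, overlapped between the genotypes. *Cacna2d2* made up 17.6%, 18.8% and 13.3% of this sum in WT and 17.4%, 43.3% and 29.6% in DKO. DKO replicate 1 had a *Cacna2d2* share within the WT range, and *Cacna2d1* took 68.8% there, against 39.6% and 53.0% in DKO replicates 2 and 3. Among the β genes, *Cacnb3* held 64.6% to 67.6% of the summed RPKM in WT and 52.3%, 69.5% and 60.9% in DKO, and *Cacnb1* held 25.8% to 27.6% in WT and 43.4%, 27.1% and 30.8% in DKO.

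**Figure D3:**
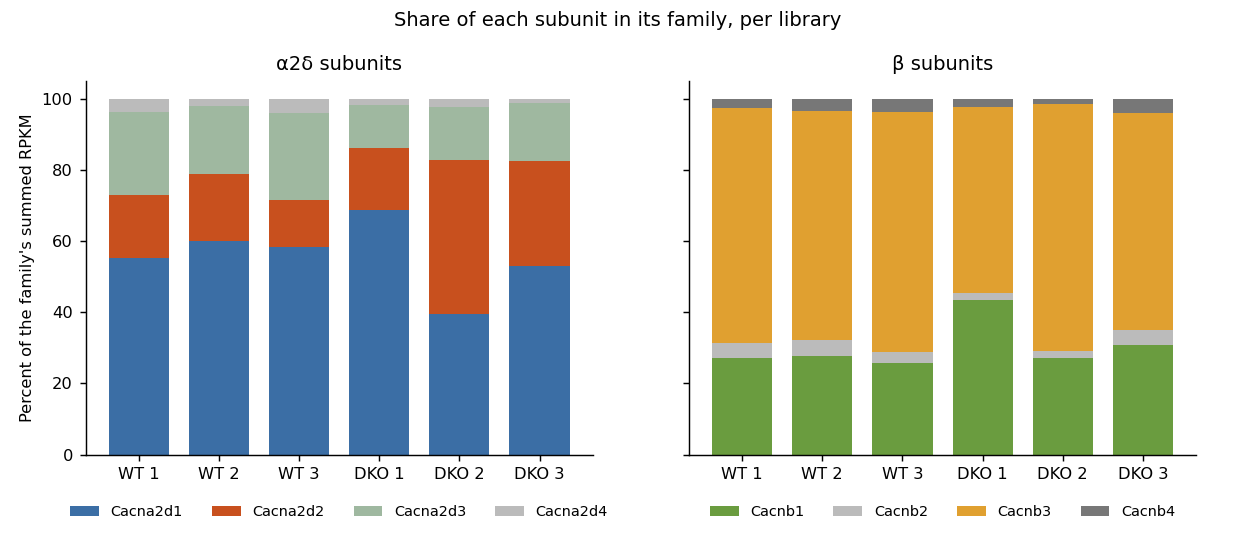
Percent of the summed RPKM of the 4 α2δ genes and of the 4 β genes taken by each gene in each library. The *Cacna2d2* share is 13.3% to 18.8% in WT libraries and reaches 43.3% in DKO replicate 2, and the *Cacnb1* share is highest, 43.4%, in DKO replicate 1.

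The members differed in how they varied among the 3 DKO libraries. Relative to the WT mean, the summed skeletal muscle markers stood at 3.27, 1.37 and 1.53 in DKO. Without *Ttn*, the sum stood at 3.17, 1.53 and 1.53. DKO replicate 1 was the highest DKO library for 18 of the 24 markers, while replicate 2 was above replicate 3 for 19 of them, so only the place of replicate 1 was common to the sum and to most markers. *Cacna2d1* was also highest in DKO replicate 1, at 2.23, 0.867 and 1.31. *Cacnb1*, at 2.35, 1.54 and 1.22, shared its highest library with the muscle sum and followed the order of the muscle channel genes *Cacna1s* (3.65, 1.65 and 1.37) and *Ryr1* (3.06, 1.96 and 1.43), which encode the pore of that channel and the calcium release channel it opens. Of the 24 markers, 14 held this order, and in 4 replicate 1 was highest and replicate 3 second. *Sln*, a gene of muscle calcium stores, did not hold it (744, 219.5 and 275 normalized counts). *Cacna2d2*, at 1.98, 3.32 and 2.56, was lowest in DKO replicate 1, where most muscle markers were highest. *Cacnb3* was also highest in DKO replicate 2, at 1.15, 1.60 and 0.981. The order of *Cacna2d2* among DKO libraries was also that of summed keratinocyte markers (14019, 16456 and 14609 CPM), *Kctd1* and *Kctd15*. Single keratinocyte markers were divided in their normalized counts. *Krt5*, *Krt14*, *Itgb4*, *Dsp*, *Lor*, *Ivl* and *Cdh1* held this order, and *Krt1*, *Krt10*, *Krt15*, *Trp63*, *Itga6*, *Dsg3* and *Flg* did not. Summed hair follicle (4764, 10519 and 8684 CPM), sebocyte (834, 1418 and 1156 CPM) and T cell and Langerhans cell markers (112, 163 and 132 CPM) held this order too. In the last of these lists, *Epcam*, the most abundant, *Cd74*, *H2-Aa* and *Cd3e* held it, and *Ptprc*, *Trdc*, *Cd3g* and *Cd207* did not. The other cell type sums had other orders, and the source of the shared order was not tested. Without DKO replicate 1, the DKO library lowest in *Cacna2d2*, that gene had a log2 fold change of 1.54 (adjusted p = 0.00621 in edgeR). With any other single library left out, its adjusted p-value in edgeR lay between 0.058 and 0.359. Its difference led to the choice of the family, so these values are a description only. The median of the muscle markers dropped from 0.91 to 0.50 without DKO replicate 1. The part of muscle content in the values of *Cacna2d1* and *Cacnb1* was not tested. In whole skin, more cells of a type and more RNA per cell cannot be told apart.

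**Figure D4:**
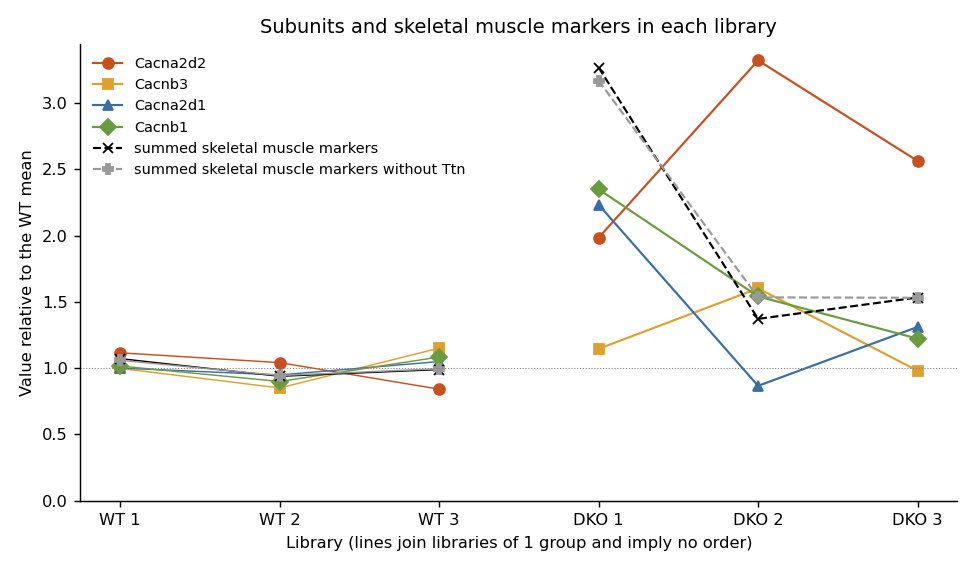
Normalized count of 4 subunits and summed CPM of 24 skeletal muscle markers, with and without *Ttn*, in each library, each divided by its WT mean. Muscle markers (3.27), *Cacnb1* (2.35) and *Cacna2d1* (2.23) peak in DKO replicate 1, and *Cacna2d2* (3.32) and *Cacnb3* (1.60) peak in DKO replicate 2.

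The titles of the samples carry a number shared by mice of both genotypes, with 1 mouse of each genotype under 40972 and 2 of each under 47347. The log2 ratio of DKO to WT for *Cacna2d2* was 1.24 under the first number and 1.45 under the second. *Cacnb1* had 1.12 and 0.53, *Cacna2d1* had 1.09 and 0.16, and *Cacnb3* had -0.01 and 0.48. The remaining 4 members lay between -0.41 and 0.28 under either number. *Cacna2d3* had -0.16 and -0.01, *Cacna2d4* -0.41 and -0.31, *Cacnb2* -0.08 and -0.07, and *Cacnb4* -0.40 and 0.28.

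Genes whose values over the 6 libraries were most like those of a member were sought among 19895 genes by the root mean square difference in mean-centred log2 CPM. For *Cacna2d2* they were *Tcf23* (0.14), *Lrrc38* (0.179), *Dact2* (0.19), *2610318N02Rik* (0.213) and *Gm10804* (0.214). *Dact2*, which encodes a regulator of Wnt and TGF-beta signaling, had 56.1, 43.3 and 41.9 normalized counts in WT and 104, 121 and 106.5 in DKO. For *Cacnb1* the nearest gene was *Casq1* (0.0589), which encodes the calcium-binding protein of the muscle sarcoplasmic reticulum, followed by *Agt* (0.077) and *Meg3* (0.083). For *Cacna2d1* they were *Tspan2* (0.0725), *Gm45338* (0.0751) and *Stxbp6* (0.0854), and for *Cacnb3* they were *Card6* (0.0578), *Nkd1* (0.0715) and *Calm3* (0.0745). The nearest genes were *Zfp799*, *Gm22107* and *Gm10509* for *Cacna2d3*, *Gm38250*, *Snord19* and *Gm43246* for *Cacna2d4*, *Adamts6*, *Lsm8* and *Frg1* for *Cacnb2*, and *A830018L16Rik*, *F830115B05Rik* and *Rgs22* for *Cacnb4*, at 0.0259 to 0.17. These measures describe the same 6 libraries, which all genes share, and carry no test.

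The other genes named as calcium channel subunits were read from lists. Over all genes tested, 7.5% had an unadjusted p-value under 0.05 in edgeR and 0.0694% were called by edgeR. DESeq2 called 0.783% of genes with an adjusted p-value. Of 10 pore-forming α1 genes, 9 had enough counts and 0 were called by edgeR, with 3 at an unadjusted p-value under 0.05 and 1 called by DESeq2. The gene called by DESeq2 was *Cacna1s*, with 305, 340 and 293 normalized counts in WT and 1140, 515 and 427 in DKO (log2 fold change 1.15 ± 0.32, adjusted p = 0.342 in edgeR and 0.0271 in DESeq2), and its log2 fold change was 0.58 without DKO replicate 1. *Cacna1e*, an R-type pore, was lower in all DKO libraries, with 275, 304 and 358 against 204, 229 and 203 normalized counts (log2 fold change -0.56 ± 0.16, adjusted p = 0.352 in edgeR). *Cacna1g*, a T-type pore, a kind known to conduct without α2δ or β subunits, had 571, 613 and 713.5 against 921.5, 973 and 723 (log2 fold change 0.46, adjusted p = 0.479 in edgeR). Of 8 γ genes 4 were tested and 0 were called by edgeR or DESeq2, with 3 at an unadjusted p-value under 0.05. Among them the muscle gene *Cacng1* had a log2 fold change of 0.83, *Cacng7* 0.76 and *Cacng4* -0.83, with adjusted p-values of 0.644, 0.479 and 0.485 in edgeR. The γ genes were listed by name, and whether they serve a calcium channel in skin was not tested. Without DKO replicate 1, *Cacng1* had a log2 fold change of 0.30 and *Cacng6*, which had 88.1 normalized counts in that library against 34.2 and 17.9 in the other DKO libraries, had 0.41 in place of 1.25. The α1 median log2 fold change was 0.17 and the γ median 0.80, or 0.03 and 0.35 without DKO replicate 1, beside 0.02 over all genes tested.

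**Figure D5:**
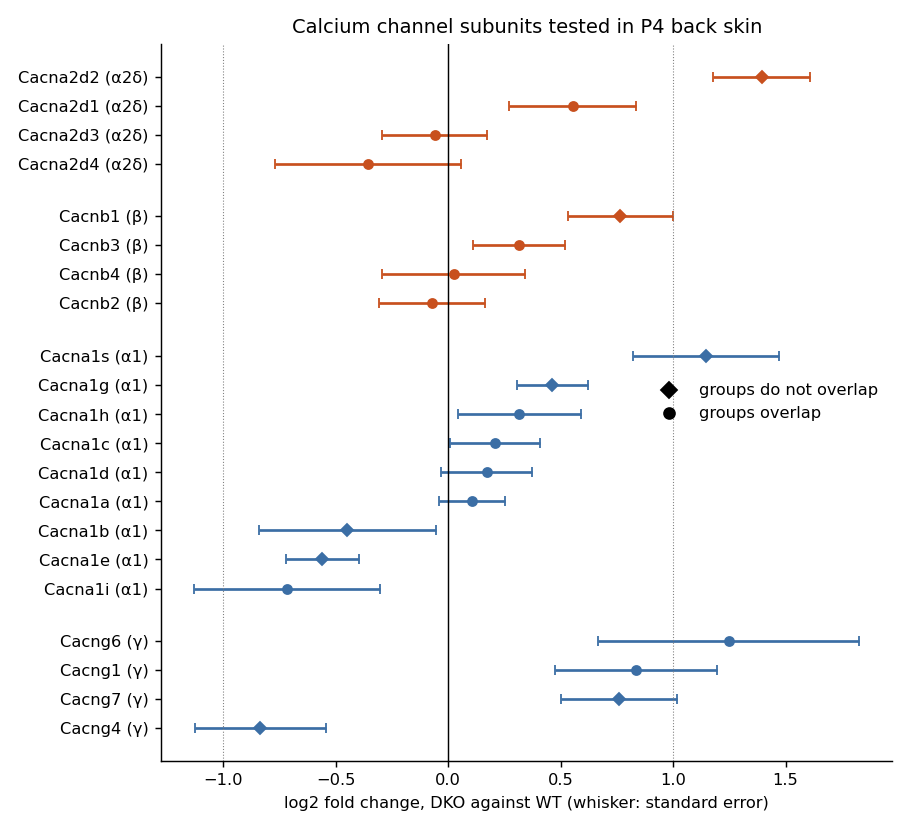
Log2 fold change of DKO against WT with its standard error (whisker) for the 8 auxiliary subunits (orange) and the 9 α1 and 4 γ subunits tested (blue), where diamonds mark genes whose groups do not overlap and dotted lines mark a log2 fold change of 1 in either direction. *Cacna2d2* at 1.39, *Cacng6* at 1.25 and *Cacna1s* at 1.15 lie beyond the line (1.54, 0.41 and 0.58 without DKO replicate 1), and none of the 21 was called by edgeR.

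Known binding partners and the genes of intracellular calcium stores were read in the same way, beside the shares over all genes tested of 52.9% higher in DKO, 7.5% at an unadjusted p-value under 0.05, 0.0694% called by edgeR and 0.783% by DESeq2. Of 13 listed genes, which cover thrombospondins, LRP1 and neurexin 1 as partners of α2δ, and RGK proteins and STAC adaptors as partners of the β subunit or the channel, 12 were tested, 10 were higher in DKO, and 0 were called by edgeR or DESeq2 (5 at an unadjusted p-value under 0.05). *Stac2* (log2 fold change 0.82), *Gem* (0.53) and *Thbs2* (0.33), a thrombospondin, had the smallest p-values, with adjusted p-values of 0.369, 0.423 and 0.49 in edgeR. Among 24 genes of calcium stores and pumps, 20 were higher in DKO and 0 were called by edgeR, with 11 at an unadjusted p-value under 0.05, while DESeq2 called *Atp2a1* (1.19) and *Ryr1* (1.10), the pump and the release channel of muscle stores. *Sln*, an inhibitor of that pump, had 134.5, 135 and 48.8 normalized counts in WT and 744, 219.5 and 275 in DKO. Its log2 fold change was 1.96 ± 0.50 (adjusted p = 0.29 in edgeR), or 1.21 ± 0.34 without DKO replicate 1. The list's median log2 fold change was 0.55, or 0.33 without that library, where *Atp2a1* had 0.80 and *Ryr1* 0.75. Of 24 skeletal muscle markers 23 were tested, with 21 higher in DKO, a median of 0.91, 0 called by edgeR, 16 at an unadjusted p-value under 0.05 and 9 called by DESeq2. *Ttn* and *Acta1*, the most abundant of them, had log2 fold changes of 1.05 and 1.14, or 0.54 and 0.81 without DKO replicate 1.

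Markers of other cell types were summed in the same way. The summed level of the 13 nerve and Schwann cell markers was 261 to 275 CPM in WT and 440, 288 and 270 CPM in DKO, highest in the library with the most muscle. Smooth muscle and pericyte markers (478 to 552 against 467 to 563.5 CPM), fibroblast markers (14508 to 18021 against 16719 to 22671 CPM), melanocyte markers (578 to 888 against 527 to 857 CPM), adipocyte markers (1463 to 2232 against 1335 to 3004 CPM) and T cell and Langerhans cell markers (140.5 to 156 against 112 to 163 CPM) overlapped between the genotypes. Summed mast cell markers were above WT in all DKO libraries (222 to 239 against 250 to 325 CPM). Summed hair follicle markers (11833 to 13560 against 4764 to 10519 CPM) and sebocyte markers (2230 to 2616 against 834 to 1418 CPM) were below. Taken singly, 2 of 7 mast cell genes lay above without overlap, and 3 of 11 hair follicle and 7 of 10 sebocyte genes lay below. *Kit*, the most abundant mast cell marker, had a log2 fold change of 0.05. Without DKO replicate 1, the median log2 fold change went from 0.40 to 0.11 for mast cell markers. For hair follicle markers it went from -0.33 to -0.06, and for sebocyte markers from -1.065 to -0.87. For single genes, the groups did not overlap in 13.2% of those tested. None of these lists held a gene that edgeR called. DESeq2 called 6 of 10 sebocyte genes, all lower in DKO, where it called 0.783% of genes with an adjusted p-value in either direction. Which of these cells carried the *Cacna2d2* reads was not tested.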

How the data were processed

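Full-thickness P4 back skin of 3 WT and 3 DKO mice was analysed; groups came from the sample titles, with replicates numbered in accession order. The members and gene lists were chosen with earlier results of these data known. Per the submitters' processing notes and the methods, the authors used Trimmomatic 0.36 on the paired-end reads, STAR 2.5.2b against GRCm38, and featureCounts (Subread 1.5.2) to count reads on genes. The deposited values are whole-number counts per gene, without normalization, and gene length as bases of merged exons. The strand setting and the handling of multimapped reads were not given in the sources used here. The 7 epidermis files hold only 0 and were left out.

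Symbols were matched for 99.3% of 49315 identifiers through GENCODE M21. The tests used edgeR 4.0.16 (R 4.3.3) with filterByExpr, TMM, the quasi-likelihood F test and Benjamini-Hochberg adjustment over 20168 genes, and genes were called past the thresholds of the study given above. A standard error is the absolute log2 fold change over the square root of F. DESeq2 1.42.0, the tool of the study, was an alternative. No 2 libraries of a group agreed within counting noise (chi-square of 8.09 or more per degree of freedom). Tests were first checked on simulated counts. Named genes were the 8 members, in each channel, partner and store list the genes called or with the 3 smallest p-values, the most abundant 2 markers of a list (given for skeletal muscle, the other lists as sums), the targeted genes, and the nearest genes by root mean square difference (log2 CPM, prior count 2, mean normalized count of at least 10). *Cacng6* and the single keratinocyte, T cell and Langerhans cell, and mast cell markers given above were named after their values were seen. P-values measure the spread between these 3 mice a group. The planned test of the order of levels over all 6 libraries is not reported, since WT means had set the order, and the DKO libraries are given instead. Alternatives were other scalings, other filters, a block, 1 number alone, and each library left out.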

Additional observations from a re-analysis of the deposited data

How the results depend on the processing

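*Cacna2d2* kept its direction under all 14 alternatives, with log2 fold changes from 1.19 to 1.54 and adjusted p-values from 1.27e-05 to 0.359. Under 5 of them it was called, so that 1 of the 8 members passed in place of 0: DESeq2, total counts (0.0464), no filter on low counts (6.29e-05), the shared number as a block (0.0196), and edgeR without DKO replicate 1 (0.00621). With 1 library left out, the number of members called lay between 0 and 1. No other member was called under any alternative. *Cacna2d3*, *Cacnb2* and *Cacnb4*, all near 0, took either sign, and *Cacna2d1* ranged from 0.11 without DKO replicate 1 to 0.83 without DKO replicate 2.

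Over all genes, 14 were called, against 154 with DESeq2, 22 with total counts, 210 with no filter on low counts, 35 with the block and 9 in the mice under number 47347 alone. With 1 library left out the count lay between 2 (without any WT replicate) and 36 (without DKO replicate 1). It was 33 without DKO replicate 2 and 4 without DKO replicate 3. Channel, partner and store genes called numbered 0, against 3 with DESeq2 and 5 with no filter, and muscle markers 0, against 9 with DESeq2, 9 with no filter and 1 with the block. The cause was not tested. The shared number was used as a block although its meaning is not stated. Deviations from group means correlated at 0.23 between the WT and DKO mouse under 40972, and from -0.02 to 0.17 among the mice under 47347. Between WT and DKO mice with different numbers they correlated from -0.152 to -0.104. Deviations within a group cancel out, so these values are not independent of each other.

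The number of neighboring pairs in the order of levels that kept their direction in every library stayed at 3 with a pseudocount of 1, TPM or TMM-scaled sizes, and lay between 3 and 4 with 1 library left out. This count includes the WT libraries, whose means set the order, so it is no independent evidence for the order. The muscle sum without *Ttn* and the order in DKO libraries alone were chosen after seeing the data, and in that sum DKO replicate 2 over replicate 3 was 1.00 in place of 0.895. At 16 to 47 counts per library, *Cacna2d4* allows no statement on small differences.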
